A study of Mus musculus with 12 samples.

Results

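Joints of arthritic mice treated with an agonistic anti-SIRPa antibody were compared with joints of naive mice, across all genes of the deposited count table. The comparison took 8 of the 12 libraries of the series, 4 per group, chosen by their labels. Naive mice had received no arthritogenic serum and were given anti-gp120, a control antibody. The treated mice had received K/BxN serum and the anti-SIRPa antibody 6F2, and their paws were collected 7 days after the serum. The other 4 libraries came from mice given K/BxN serum and anti-gp120, and their levels stand beside the results below as control-antibody arthritis. Every library was made from total RNA of the whole paw tissue of 1 mouse. The strain, age and sex of the mice and the dose and timing of the antibodies were not given in the sources used here. Treated and naive joints differed both in serum and in antibody, so that effects of the serum that remained under treatment and effects of the antibody itself cannot be told apart in this comparison.

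Serum of K/BxN mice carries antibodies to glucose-6-phosphate isomerase, a ubiquitous enzyme that is deposited on joint surfaces. The immune complexes engage complement and Fc receptors, draw in neutrophils and monocytes, and drive inflammation of synovium, tendon sheath and bone surface within days. SIRPa is an inhibitory receptor of macrophages, neutrophils and dendritic cells. On binding CD47 it recruits the phosphatases SHP-1 and SHP-2 (Ptpn6 and Ptpn11), which dampen activating signals. Paw tissue also contains small bones with marrow, muscle, fat, tendon and skin, and RNA of all of these enters a library of the whole paw. In such bulk samples, fewer cells of a type and less RNA per cell cannot be told apart.

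No gene passed an adjusted p of 0.05 between treated and naive joints in edgeR's quasi-likelihood test (0 of 16674 genes, or 0.0%). The smallest adjusted p was 0.476, for Zfp36. Before adjustment, 675 genes (4.05%) had a p under 0.05, of which 438 (2.63% of all tested genes) were higher and 237 (1.42%) lower in treated joints. This unadjusted level is called the nominal threshold below and is no call. With no difference in any gene, a fraction of about 0.05 would be expected to pass it. This is more than the 4.05% found in the fit of all 12 libraries and less than the 7.67% in the 8 libraries alone. The shares of all genes in this paragraph are the background for every count of list members below. In 507 genes (3.04%) every treated mouse lay above every naive mouse, and in 309 (1.85%) every treated mouse lay below. DESeq2 called 20 genes, 18 higher (0.108%) and 2 lower (0.012%). Among them were Zfp36, Fos, Egr1, Kit, Igkc, Igha, Ngp, Lcn2, Cybb, Clec12a, Col11a2, Slc13a5, Adcyap1r1, Tshr, Arhgap15 and the small nucleolar RNA genes Gm23442 and Gm22357, all higher, and Itgb8 and Mast4, lower. In a fit of the 8 libraries alone DESeq2 called 112 genes, 88 higher and 24 lower, and edgeR 0, with 1220 (7.67%) past the nominal threshold. The smallest edgeR adjusted p in that fit was 0.112. Without a filter on low counts edgeR called 4 genes, Zfp36, Kit, Slc13a5 and Gm23442, all higher. For comparison, the same edgeR fit called 979 genes (5.87%) higher and 742 (4.45%) lower in control-antibody arthritis than in the same naive mice. Treated against control-antibody joints gave 265 genes (1.59%) higher and 283 (1.7%) lower. The median log2 difference over all tested genes was -0.01 for treated against naive joints. Differences below are log2 values with their SE from the edgeR fit, and levels are CPM, read counts scaled to TMM-adjusted library size.

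The libraries held 14289363 to 16205593 counts in naive and 13791454 to 17597920 counts in treated joints, and 6893969 to 13416033 in control-antibody arthritis. Markers of joint lining and muscle were abundant in all 8: Prg4, the lubricin of synovial lining and cartilage surface, lay at 7038 to 9862 CPM in naive and 6436 to 10158 CPM in treated joints, and Acta1, skeletal muscle actin, at 12483 to 17726 and 9361 to 13478 CPM. Epidermis varied most. Krt5, a keratin of basal epidermis, stood at 670.2, 419.6, 289 and 0.383 CPM in naive mice 1 to 4 and at 22.6, 0.193, 30.5 and 738 CPM in treated mice 1 to 4. Naive mouse 4 and treated mouse 2 therefore had almost no epidermal RNA, and counts that a result leads with were recomputed without these 2 libraries. Treated mice 1 and 3 were low as well. Epidermal keratin genes took 0.0517% and 0.0604% of their counts, against 0.523% to 2.03% in naive mice 1 to 3. Treated mouse 4 had 3.01%. Leaving out the 2 libraries thus does not balance the groups for skin. The share of all counts taken by Gm26917, an abundant non-coding RNA, was 1.95% ± 0.323 in naive and 1.92% ± 0.398 in treated joints (SD, n = 4 each; exact two-sided permutation p = 0.886).

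Early response genes are switched on within minutes of a stimulus without new protein synthesis. They encode transcription factors, such as Fos and Egr1, and proteins that end the signal, such as the mRNA-destabilizing Zfp36 and the phosphatase Dusp1. Their promoters are read by signal-activated factors, among them CREB, which binds the cyclic AMP response element, TGACGTCA, and its half-site TGACG. The 250 bases before the transcription start are shown for 5 early response genes that passed the nominal threshold, from RefSeq on GRCm38.p6, in the direction of transcription, with TGACG on either strand in capitals.
Fos: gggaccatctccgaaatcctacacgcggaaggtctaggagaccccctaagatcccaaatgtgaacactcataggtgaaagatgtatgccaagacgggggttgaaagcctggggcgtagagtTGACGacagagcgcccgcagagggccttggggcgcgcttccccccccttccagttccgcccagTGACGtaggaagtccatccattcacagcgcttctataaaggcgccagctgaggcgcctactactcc
Fosb: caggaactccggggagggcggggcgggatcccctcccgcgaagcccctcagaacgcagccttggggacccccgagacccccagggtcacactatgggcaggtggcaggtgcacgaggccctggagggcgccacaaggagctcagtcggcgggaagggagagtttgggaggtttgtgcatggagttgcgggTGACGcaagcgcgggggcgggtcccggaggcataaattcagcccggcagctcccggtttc
Junb: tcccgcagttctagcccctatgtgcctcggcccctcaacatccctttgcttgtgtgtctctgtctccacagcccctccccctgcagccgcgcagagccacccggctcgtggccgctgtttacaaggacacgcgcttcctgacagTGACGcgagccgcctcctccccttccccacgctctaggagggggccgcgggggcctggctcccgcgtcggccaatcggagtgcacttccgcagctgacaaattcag
Zfp36: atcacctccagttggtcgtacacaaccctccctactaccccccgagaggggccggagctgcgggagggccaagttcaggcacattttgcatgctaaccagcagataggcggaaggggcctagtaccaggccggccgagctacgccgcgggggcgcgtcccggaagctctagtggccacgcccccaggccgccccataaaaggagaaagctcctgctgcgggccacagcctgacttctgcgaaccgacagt
Dusp1: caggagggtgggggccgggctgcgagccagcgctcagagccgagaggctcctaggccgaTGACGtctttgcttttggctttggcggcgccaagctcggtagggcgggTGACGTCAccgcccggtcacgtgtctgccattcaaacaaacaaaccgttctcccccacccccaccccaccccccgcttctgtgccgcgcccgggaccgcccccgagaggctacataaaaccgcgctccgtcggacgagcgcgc
The windows lie on chromosome 12 from 85473640 to 85473889, plus strand (Fos), on chromosome 7 from 19310046 to 19310295, minus strand (Fosb), on chromosome 8 from 84978749 to 84978998, minus strand (Junb), on chromosome 7 from 28379229 to 28379478, minus strand (Zfp36), and on chromosome 17 from 26508473 to 26508722, minus strand (Dusp1). Fos held 2 matches, Fosb and Junb 1 each, and Dusp1 3, of which 2 overlap in its 1 complete TGACGTCA, beginning 143 bases before the start. The window of Zfp36 had no match. Of all 32851 promoters in the table, 17.8% held TGACG on either strand in these 250 bases and 1.55% held TGACGTCA. Among the 84 genes of the 3 early response lists, 67 were matched to a promoter, with 84 start sites in all, of which 48.8% held TGACG and 8.33% TGACGTCA. A match describes the sequence and is not a shown binding site.

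Zfp36 had the smallest p of all genes. Its protein, tristetraprolin, shortens the life of inflammatory mRNAs. It stood at 14.1, 12.8, 18.3 and 9.96 CPM in naive mice 1 to 4 and at 22.3, 34.5, 29.5 and 34.9 CPM in treated mice 1 to 4. The lowest treated mouse lay above the highest naive mouse, and the difference was 1.14 ± 0.19 (edgeR adjusted p = 0.476; DESeq2 adjusted p = 5.58e-05). In control-antibody arthritis Zfp36 stood at 33.7, 36.6, 36.6 and 29.8 CPM, called higher than in naive joints (edgeR adjusted p = 0.00532). The ranges of the arthritic groups overlapped (treated minus control-antibody, -0.17; edgeR adjusted p = 0.593).

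Fos, a subunit of the AP-1 transcription factor, stood at 19.6, 11.5, 11 and 19.9 CPM in naive and at 37, 179, 57.8 and 111 CPM in treated mice. All 4 treated mice were above all naive mice, but they spread widely, with mouse 2 highest and mouse 1 lowest, and the difference was 2.63 ± 0.48. Egr1, a zinc finger transcription factor, showed the same order of treated mice, at 59.3, 173, 81.7 and 122 CPM against 47, 31.5, 45.2 and 38.3 CPM in naive mice (1.43 ± 0.28). For both genes the levels in control-antibody arthritis, 49.7 to 90.9 CPM for Fos and 82.6 to 125 CPM for Egr1, lay within the range of the treated mice. The edgeR adjusted p was 0.526 for Fos and 0.526 for Egr1. DESeq2 called both, with adjusted p of 7.01e-07 and 0.00115.

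Fosb and Junb, the other AP-1 subunits past the nominal threshold, overlapped between the groups. Fosb stood at 7.67, 3.3, 8.37 and 5.83 CPM in naive and 6.99, 26.7, 15.2 and 21.2 CPM in treated mice, and Junb at 49.5, 31.6, 40.5 and 34.6 CPM versus 38.9, 78.5, 56.5 and 85.8 CPM. Treated mouse 1 lay among the naive mice for both genes, while treated mice 2, 3 and 4 lay above all of them. Control-antibody arthritis reached 16.7 to 80.4 CPM for Fosb and 76.9 to 124 CPM for Junb. Jun, the partner of Fos in AP-1, had 247 to 375 CPM in naive and 253 to 459 CPM in treated joints, with a difference of 0.17 ± 0.18. Of the 14 tested AP-1 genes, 3 were higher and 2 lower past the nominal threshold, and their median difference was 0.03, beside -0.01 over all genes. The lower members were Mafk, a small Maf protein that pairs with other leucine zipper factors (45.2, 31.7, 34 and 41.2 CPM versus 29.5, 27.9, 26.1 and 28.1 CPM), and Atf4, a factor of the integrated stress response (-0.28 ± 0.11). Without the 2 libraries poor in epidermis, 1 AP-1 gene was higher past the nominal threshold.

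Fosl1 and Fosl2 were not higher in treated than in naive joints. Fosl1, an AP-1 subunit of activated fibroblasts and keratinocytes, stood at 1.22, 0.773, 1.34 and 0.69 CPM in naive and 0.353, 0.58, 0.578 and 0.396 CPM in treated mice. All treated mice lay below all naive mice, at a difference of -1.07 ± 0.57 that did not reach the nominal threshold. Control-antibody arthritis held 0.579, 5.78, 5.06 and 3.68 CPM and was called higher than treated joints (treated minus control-antibody, -2.96; edgeR adjusted p = 0.0265). For Fosl2 the treated and naive ranges were 63.5 to 95.9 and 63.2 to 93.4 CPM, and that of control-antibody arthritis 95.2 to 271 CPM (treated minus control-antibody, -1.40; edgeR adjusted p = 0.0292).

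Among 30 tested members of the Egr, Nr4a, Klf and related early transcription factors, 6 were higher past the nominal threshold and 1 lower. These counts stand beside 2.63% and 1.42% of all genes, and the median was 0.13. Ier2, a small nuclear early response protein, stood at 24.3, 16.3, 18.1 and 14.8 CPM in naive and 18.7, 38.4, 24.3 and 40.7 CPM in treated mice, and the antiproliferative Btg2 at 28.1, 17.3, 16.4 and 19.5 CPM versus 18.2, 52.6, 31.6 and 39.9 CPM. In both, treated mice 2 and 4 were highest and mouse 1 lay among the naive mice, and for Ier2 mouse 3 was level with naive mouse 1. Rhob, a small GTPase (0.34 ± 0.12), Id1, an inhibitor of helix-loop-helix factors (0.43 ± 0.17), and Klf2, a factor of quiescent endothelium (0.41 ± 0.15), had smaller differences. The orphan nuclear receptor Nr4a3 was the member lower past the nominal threshold, at 34.8, 12, 24 and 26.7 CPM in naive and 9.4, 12.8, 12 and 8.38 CPM in treated mice, where naive mouse 2 overlapped the treated range.

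Proteins that restrain early signalling were divided as well. Of 36 tested, 5 were higher past the nominal threshold and 3 lower, beside 2.63% and 1.42% of all genes (median 0.13). Dusp1, which dephosphorylates p38 and JNK and is induced by glucocorticoids as well as by stress, stood at 58.2, 47.3, 40.6 and 59.9 CPM in naive mice and at 65.7, 92.1, 71 and 88.7 CPM in treated mice, without overlap (0.62 ± 0.18). Control-antibody arthritis, at 63.4, 50.4, 38.8 and 42.5 CPM, was not called different from naive joints for Dusp1 (-0.08; edgeR adjusted p = 0.805), and treated joints were called higher than those by 0.70 (edgeR adjusted p = 0.0472). Zfp36l1, a relative of Zfp36, was at 36.4 to 49.4 and 54.5 to 76.7 CPM, and Rgs1, a regulator of G protein signalling in leukocytes, at 0.974, 0.632, 0.844 and 0.153 CPM versus 2.06, 1.42, 1.23 and 1.98 CPM. Both pairs of groups were separate. Nfkbiz, an inducible IkB protein, stood at 9.27 to 11.2 CPM in naive, 10.7 to 16.3 CPM in treated and 22.3 to 43.9 CPM in control-antibody arthritic joints, the last called higher than treated joints (edgeR adjusted p = 0.0193). Without the 2 libraries poor in epidermis 3 were higher. The lower members were Ppp1r15a, which restores translation after stress (-0.42 ± 0.16), Gadd45b, a stress sensor (-0.50 ± 0.20), and the phosphatase Dusp8 (-0.26 ± 0.11). The order of treated mice in these genes, with mice 2 and 4 above mice 3 and 1 for Fos, Egr1, Fosb, Junb, Ier2, Btg2 and Dusp1, can be followed in the plot of early response genes by mouse.

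**Figure D1:**
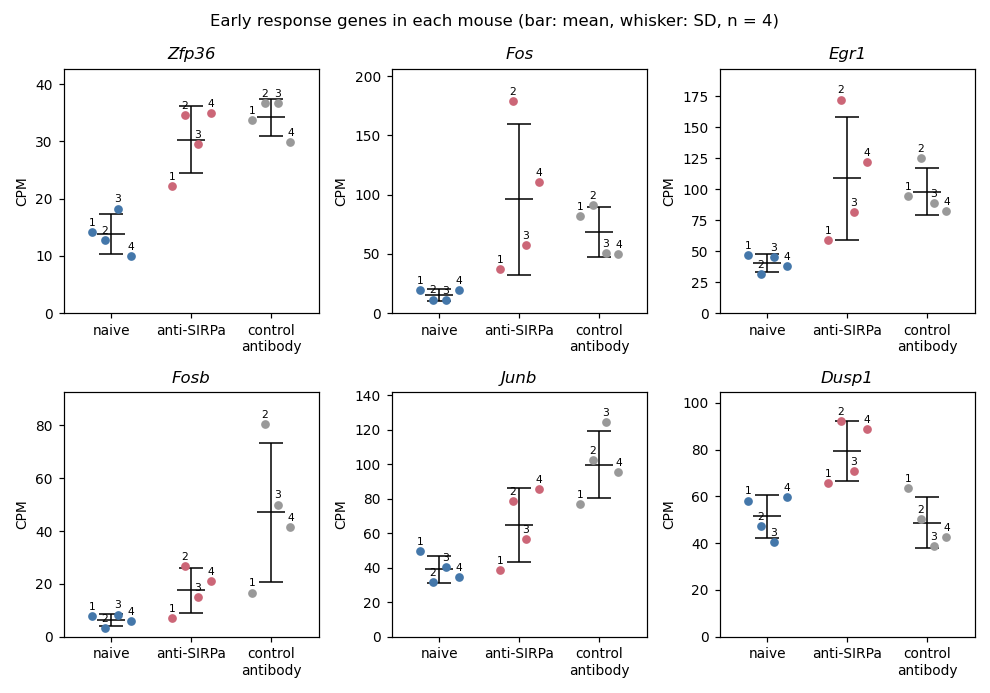
TMM-scaled CPM (vertical axis, linear from 0) of 6 early response genes in each mouse, numbered within its group, for naive, anti-SIRPa treated and control-antibody arthritic joints; bars are means and whiskers SD of 4 mice. Zfp36, Fos, Egr1 and Dusp1 are separate between naive and treated mice, while treated mouse 1 overlaps the naive mice for Fosb and Junb. All 6 genes were picked among those past the nominal threshold, so their separation follows in part from the choice. Other early response genes overlapped or were lower in treated mice, among them Jun, Mafk and Nr4a3.

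Of 23 tested genes that respond to glucocorticoids, 5 were higher past the nominal threshold and 0 lower, beside 2.63% and 1.42% of all genes. Their median was 0.12. Sgk1, a kinase of sodium transport, stood at 56, 56.4, 45.6 and 49.2 CPM in naive and 63.5, 76.6, 115 and 64.8 CPM in treated mice, with mouse 3 highest and no overlap. Ddit4, an inhibitor of mTORC1, was at 10.6, 8.71, 8.51 and 7.05 CPM versus 12.4, 10.8, 14.9 and 13.2 CPM. The groups were separate for each gene, both genes were higher still in control-antibody arthritis, at 136 to 151 and 17.9 to 34.5 CPM, and treated joints were called lower than it (edgeR adjusted p = 0.0289 and 0.0193). Tsc22d3, the glucocorticoid-induced leucine zipper, had 85.3 to 125 CPM in naive and 86.6 to 140.3 CPM in treated joints, with overlap. Of the 20 circadian clock genes, Npas2, a clock transcription factor, was lower past the nominal threshold, at 9.5, 6.74, 8.44 and 7.2 CPM versus 4.64, 4.44, 4.33 and 5.27 CPM, and none was higher.

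Several marrow genes were higher in treated joints. Granulocyte precursors in marrow fill their granules in order: first with myeloperoxidase (Mpo), elastase (Elane), proteinase 3 (Prtn3) and cathepsin G (Ctsg), then with lactoferrin (Ltf), Ngp, cathelicidin (Camp) and Lcn2. Mature neutrophils in inflamed tissue no longer transcribe the first set. Mpo stood at 0.122, 1.19, 0 and 0.307 CPM in naive and 5.46, 6.12, 19.4 and 1.93 CPM in treated mice, and Ngp, a neutrophil granule protein, at 0.791, 1.97, 0.0703 and 1.15 CPM versus 6.88, 6.25, 20.8 and 2.26 CPM. In both genes all treated mice lay above all naive mice, and mouse 3 was highest by about a factor of 3. The differences were 4.32 ± 1.09 for Mpo and 3.17 ± 0.83 for Ngp, and without treated mouse 3 they were 3.45 and 2.36.

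Most of the first set had too few counts to be tested: 3 of 14 members passed the filter, and raw counts are given here for Elane, Prtn3, Ctsg, Ms4a3 and Fcnb. Elane had 0, 2, 0 and 1 counts in naive and 13, 11, 53 and 0 in treated mice. Prtn3 had 0, 3, 0 and 0 counts against 9, 23, 22 and 6, and Ctsg 1, 4, 1 and 1 against 18, 8, 20 and 4. Treated mouse 3 had the most Elane and Ctsg, mouse 2 the most Prtn3, and mouse 4 the fewest of each. Control-antibody arthritis had 4 counts of Elane, 19 of Prtn3 and 4 of Ctsg in its 4 libraries together, against 77, 60 and 50 in the treated ones, and 16 of the 19 Prtn3 counts came from control-antibody mouse 3. Ms4a3, a membrane protein of granulocyte precursors, had 0 counts in naive, 6 in control-antibody and 9 in treated libraries, and Fcnb, a ficolin of granules, 0, 7 and 14. These sums are not scaled to depth, and each control-antibody library had fewer counts in all than any treated one.

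The second set had 11 of 15 members tested. Past the nominal threshold 5 were higher (Ltf, Camp, Ngp, Lcn2 and Chil3) and none lower, and 4 lay higher without overlap. The shares over all genes were 2.63% higher past the nominal threshold and 3.04% higher without overlap. The set's median was 1.22, and 0.74 without treated mouse 3. In the 8 libraries alone it was 1.23. There it was -0.13 or -0.07 without naive mouse 3 or 4, -0.06 without treated mouse 1 or 2, and 0.006 without treated mouse 3. The filter on low counts was rerun in each fit, so the tested members could change with the libraries. Chil3, for instance, was not tested in the 8 libraries alone. Medians below 0 mean that many tested members in those fits were not higher, so 1.22 is no rise of the whole list. Camp stood at 0.304, 1.26, 0 and 0.0766 CPM in naive and 1.76, 1.74, 4.98 and 1.42 CPM in treated mice. Ltf was at 0.548, 1.55, 0 and 1.92 CPM versus 3.64, 6.12, 20.1 and 1.87 CPM, where treated mouse 4 lay within the naive range. Lcn2, which binds bacterial siderophores and is also made by inflamed epithelium and fibroblasts, stood at 0.548, 0.632, 0.281 and 0.613 CPM versus 4.29, 2.83, 6.79 and 1.59 CPM, separate between the groups (2.88 ± 0.64; edgeR adjusted p = 0.687). DESeq2 called it (adjusted p = 0.00453). Lcn2 was 1.82 to 15.6 CPM in control-antibody arthritis, overlapping the treated mice.

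Mature neutrophil markers showed another pattern. S100a9, a subunit of calprotectin of neutrophils and monocytes, stood at 0.487, 3.02, 0.0703 and 1.76 CPM in naive and 6.11, 8.24, 24 and 3.23 CPM in treated mice, again with mouse 3 highest and no overlap, and its partner S100a8 at 0.67, 1.9, 0.562 and 1.3 CPM versus 3.29, 3.41, 11.8 and 1.25 CPM, where treated mouse 4 lay among the naive mice. Receptors of neutrophils lay below control-antibody mice 2, 3 and 4. Cxcr2, the receptor for CXC chemokines, stood at 0.411, 0.0644, 0.505 and 0.736 CPM in treated joints against 0.414, 5.52, 2.57 and 1.81 CPM there, and Csf3r, the receptor for G-CSF, at 1.47, 0.902, 2.96 and 0.51 against 2.07, 16.3, 9.29 and 5.49 CPM. Clec4d, a lectin of activated myeloid cells, was at 0.353 to 1.16 CPM in treated and 1.24 to 10.2 CPM in control-antibody joints and was called between those groups (edgeR adjusted p = 0.0193). Naive joints held 0.281 to 0.492 CPM of Clec4d. Of 10 tested neutrophil markers, 3 were higher past the nominal threshold against naive joints, and Ly6g was too low to test, with 2 counts in naive and 0 in treated libraries.

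Igkc and Igha, immunoglobulin genes of plasma cells, were higher in all treated than in all naive mice. Igkc, the kappa light chain constant region, stood at 0.304, 0.983, 0.633 and 0.46 CPM in naive and 8.29, 3.99, 10.8 and 2.77 CPM in treated mice. The lowest treated mouse had more than the highest naive mouse, and treated mice 3 and 1 had the most (3.43 ± 0.65; edgeR adjusted p = 0.526; DESeq2 adjusted p = 5.27e-05). In control-antibody arthritis it was at 0.331, 0, 0 and 0 CPM, a total of 4 counts, and treated joints were called higher than those (edgeR adjusted p = 0.0158). Igha, the heavy chain of IgA, followed the same order of mice, at 0.548, 1.4, 0.0703 and 0.307 CPM versus 4.94, 2.83, 8.88 and 2.21 CPM (2.99 ± 0.67), and was called higher than in control-antibody arthritis as well (3.10; edgeR adjusted p = 0.0365).

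Jchain, which joins IgA and IgM into polymers, stood at 0.183, 0.351, 0 and 0.0766 CPM in naive and 1.82, 1.03, 4.48 and 1.36 CPM in treated mice, and Ighm, the heavy chain of IgM, at 6.03, 8.15, 2.11 and 3.99 CPM versus 10.8, 9.27, 23.8 and 7.59 CPM. Jchain was separate between the groups, whereas treated mouse 4 overlapped for Ighm. Of 12 tested plasma cell genes 4 were higher past the nominal threshold and 0 lower, beside 2.63% and 1.42% of all genes. The median of the list was 0.70. Without treated mouse 3 the count was 4 and the median 0.75, and without the 2 libraries poor in epidermis 4 and 0.65.

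B cell genes were sparse. Cd79a, a chain of the B cell receptor, had 0, 2, 0 and 0 counts in naive and 9, 7, 16 and 1 in treated mice. Treated mouse 3 had the most. Among tested genes, Bank1, a B cell scaffold protein, stood at 0.304, 0.281, 0.773 and 0.613 CPM in naive and 1.88, 1.48, 3.75 and 1.47 CPM in treated mice without overlap (2.11 ± 0.68). Pax5, which fixes B cell identity, was at 0.122, 0.773, 0.0703 and 0.153 CPM versus 1.47, 0.966, 3.18 and 0.283 CPM, with naive mouse 2 above treated mouse 4. Rag1, which rearranges receptor genes in B precursors, was listed at 0 in naive mice 1, 3 and 4 and in treated mouse 4, and reached 1.95 CPM in treated mouse 3. Ebf1, a B lineage factor that stroma and fat precursors also express, was at 59.5 to 68.1 CPM in naive and 71.9 to 88.4 CPM in treated joints, a level far above the other B cell genes named here. Of 12 tested B cell precursor genes 2 were higher past the nominal threshold and 0 lower, with a median of 0.10, and of 5 tested mature B cell genes 1, Bank1. Precursor genes too low to test included Vpreb1, with 3 counts in naive and 2 in treated libraries, and Igll1, with 1 and 4, both parts of the surrogate light chain of B precursors. Control-antibody mouse 2 lay above every treated mouse for Rag1 (3.68 CPM) and Pax5 (4.47 CPM).

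Most red cell genes did not pass the nominal threshold. Hbb-bs, an adult beta globin, stood at 7.24, 6.11, 5.55 and 4.68 CPM in naive and 9.87, 6.05, 19.3 and 7.64 CPM in treated mice, and treated mouse 2 lay within the naive range. Globin genes are near-identical copies, and how reads matching several of them were counted is not given in the sources used here. Alas2, the first enzyme of erythroid heme synthesis, was at 1.89, 1.9, 1.34 and 2.22 CPM versus 4.23, 3.22, 7.15 and 2.21 CPM, also with mouse 3 highest and with mouse 4 among the naive mice. Of 14 tested erythroid genes 1 was higher past the nominal threshold, with a median of 0.37, and none was without treated mouse 1 or without treated mouse 3. Hbb-bs was lower in control-antibody arthritis, at 0.919 to 3.64 CPM, and treated joints were called higher than those by 2.02 (edgeR adjusted p = 0.0292).

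Kit, the stem cell factor receptor of blood progenitors, mast cells, melanocytes and some germ and nerve-associated cells, was the progenitor gene with the smallest p. It stood at 5.97, 5.76, 7.45 and 5.52 CPM in naive and 14.5, 10.4, 27 and 14 CPM in treated mice, separate between the groups, with mouse 3 highest (1.41 ± 0.28; edgeR adjusted p = 0.526; DESeq2 adjusted p = 0.00453). In control-antibody arthritis it was at 4.22, 8.67, 7.03 and 6.93 CPM, called lower than in treated joints (edgeR adjusted p = 0.0341). The proteases of mast cells, which also express Kit, overlapped: Mcpt4 was at 2.32 to 3.8 CPM in naive and 2.26 to 4.82 CPM in treated joints, and the carboxypeptidase Cpa3 at 0.73 to 1.9 and 0.849 to 3.39 CPM. Of the 18 tested progenitor genes Kit and Cd48, a leukocyte adhesion protein (1.03 ± 0.43), were higher past the nominal threshold, and the list's median was 0.04. Without treated mouse 1, or without the 2 libraries poor in epidermis, 1 of them was. None of the 14 eosinophil and basophil genes was high enough to test.

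Stroma of marrow was the other part of the marrow lists that stood out. Of 12 tested members, 5 were higher past the nominal threshold and 0 lower, beside 2.63% and 1.42% of all genes. The median was 0.44, and 1 of the 5, Adipoq, is also a fat cell gene and is described there. Esm1, a proteoglycan of sprouting and sinusoidal endothelium, stood at 0.913, 1.33, 0.773 and 1.69 CPM in naive and 4.58, 2.38, 11 and 1.93 CPM in treated mice, without overlap and with mouse 3 highest. Cxcl12, the chemokine that holds blood progenitors in marrow and is also made by synovial fibroblasts, was at 171, 183, 138 and 157 CPM versus 209, 214, 319 and 178 CPM, where only treated mouse 4 overlapped. Vcam1, an adhesion molecule of stroma and inflamed vessels, was at 7.06, 8.43, 9.77 and 4.22 CPM versus 14.7, 15.8, 29.3 and 9.74 CPM, and Grem1, a BMP antagonist of skeletal progenitors, at 0.548, 1.62, 0.422 and 0.0766 CPM versus 1.82, 1.16, 3.97 and 1.13 CPM; naive mouse 3 and naive mouse 2 respectively overlapped the treated mice. Without treated mouse 3 the count was 2 and the median 0.28, and without the 2 libraries poor in epidermis the count was 3. How much marrow each sample of paw tissue contained was not recorded in the labels, and its part in the marrow genes was not tested.

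**Figure D2:**
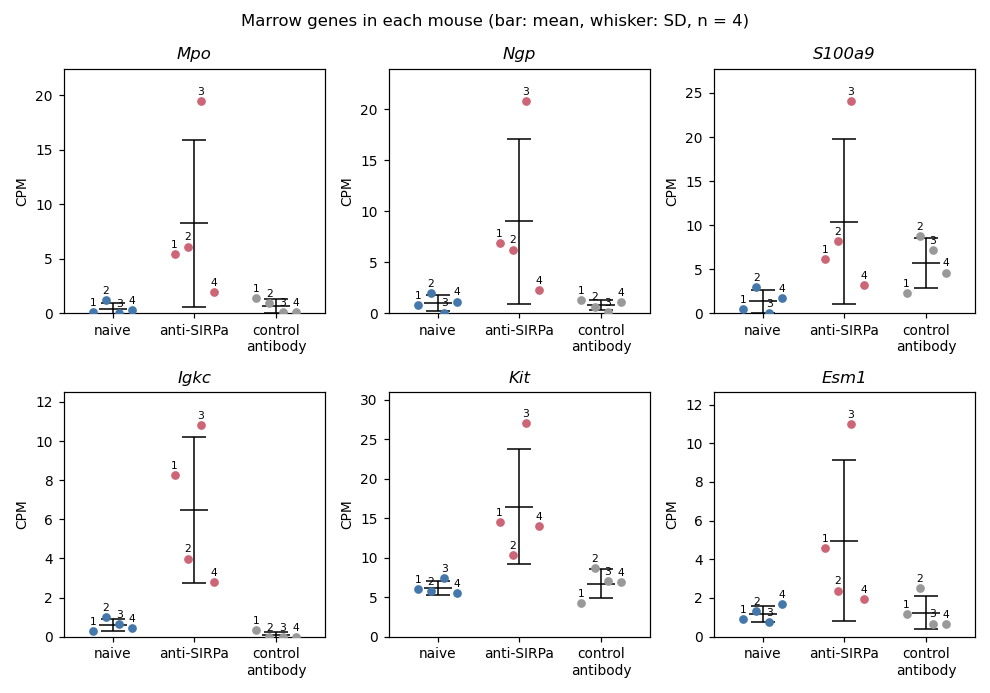
TMM-scaled CPM (vertical axis, linear from 0) of 6 marrow genes in each mouse, numbered within its group, for naive, anti-SIRPa treated and control-antibody arthritic joints; bars are means and whiskers SD of 4 mice. In all 6 genes the 4 treated mice lie above the 4 naive mice, and treated mouse 3 is the highest. The 6 genes were picked among the smallest p-values of their lists, so their separation follows in part from the choice. Other marrow genes overlapped between the groups, among them Ltf, Pax5, Hbb-bs and Cxcl12.

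Monocytes and macrophages are the main bearers of SIRPa in joints. Of 31 tested markers of recruited cells, 8 were higher past the nominal threshold and 0 lower, 11 did not overlap, and the median was 0.45, against 2.63%, 3.04% and -0.01 over all genes. Leaving out treated mouse 3 gave 5 members and leaving out the 2 libraries poor in epidermis 8. Clec12a, an inhibitory lectin receptor of myeloid cells, stood at 2.31, 2.88, 2.18 and 1.69 CPM in naive and 5.41, 4.44, 6.43 and 5.44 CPM in treated mice, separate by a wide gap (1.26 ± 0.28). Cybb, the catalytic subunit of the phagocyte NADPH oxidase, was at 23.3, 26.4, 23.9 and 21 CPM versus 54.2, 30.9, 39 and 37.5 CPM, also separate, with treated mouse 1 highest. The edgeR adjusted p were 0.664 and 0.54.

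More abundant markers differed by less. Lyz2, the lysozyme of monocytes, macrophages and granulocytes, was at 139 to 180.1 CPM in naive and 197 to 253 CPM in treated joints, without overlap (0.51 ± 0.17), and Mpeg1, a pore-forming protein of phagosomes, at 7.13 to 10.3 and 11.8 to 23.5 CPM (0.92 ± 0.33). Fcgr1, the high-affinity IgG receptor, stood at 1.89, 2.32, 2.88 and 1.46 CPM versus 3.35, 2.96, 5.27 and 6.23 CPM. For these 3 genes control-antibody mice 2, 3 and 4 lay above all treated mice, and control-antibody mouse 1 lay within the treated range. Csf1r, the receptor on which macrophages depend, had 126 to 142 CPM in naive and 129.7 to 182 CPM in treated joints (0.25 ± 0.19). Markers of resident macrophages had 1 of 23 members higher past the nominal threshold, Igf1 (0.52 ± 0.24), a growth factor that fibroblasts and macrophages both make, and a median of 0.21, and 0 without treated mouse 1 or without the 2 libraries poor in epidermis. Lyve1, which marks lymphatic vessels and perivascular macrophages, was above the naive range in treated mice 1, 2 and 4 and below it in mouse 3 (103, 80.3, 99.1 and 101 CPM versus 136, 112, 46.5 and 107 CPM), whereas control-antibody arthritis was called lower than treated joints (25.1 to 48.2 CPM; edgeR adjusted p = 0.0271).

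Antigen presentation genes had 7 of 22 tested members higher past the nominal threshold and 0 lower, beside 2.63% and 1.42% of all genes. Their median was 0.52. Ciita, the master activator of MHC class II, stood at 1.03, 1.62, 2.04 and 1.84 CPM in naive and 7.11, 2.38, 4.76 and 3.17 CPM in treated mice, without overlap (1.42 ± 0.47). The class II chain H2-Eb1 was at 13.6, 13.4, 18.7 and 10.5 CPM versus 57.6, 19.1, 31 and 26.9 CPM, and H2-Aa at 13, 14.1, 22.6 and 13.6 CPM versus 67.5, 15.2, 24.9 and 28.3 CPM. Treated mouse 1 was the highest in all 3 and treated mouse 2 the lowest, overlapping the naive mice for H2-Aa. Without treated mouse 1, 2 members passed the nominal threshold and the median was 0.39. B2m, the light chain of MHC class I, was at 32.1 to 58.1 and 62.2 to 82 CPM, separate between the groups. The mouse with the most class II RNA was thus another one than the mouse with the most granule and marrow RNA.

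Interferon-stimulated genes had 6 of 40 tested members higher past the nominal threshold, beside 2.63% of all genes, and a median of 0.36. Without treated mouse 3 these were 1 member and 0.17. Ifit3, an antiviral protein, stood at 2.25, 2.6, 1.48 and 1.92 CPM in naive and 3.29, 4.19, 6.5 and 3.96 CPM in treated mice. Without the 2 libraries poor in epidermis 3 members passed. Fc receptor and complement genes had 3 of 28 higher and 0 lower, and 1 higher without those 2 libraries. C3, the central complement component, was at 185, 186, 143 and 166 CPM versus 322, 229, 306 and 279.8 CPM, and Fcgr3, a low-affinity activating IgG receptor, at 8.7, 10.04, 11 and 10.5 CPM versus 20.1, 15, 13.9 and 13.6 CPM. All 3 genes were separate between the groups. In a fit of only the 8 libraries, 11 of the Fc receptor and complement genes were higher past the nominal threshold and 1 lower, at a background of 5.21% higher and 2.46% lower.

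Sirpa itself stood at 69.9, 72.3, 87.5 and 64 CPM in naive and 95.7, 86.1, 88.9 and 90.5 CPM in treated mice, where naive mouse 3 overlapped (0.30 ± 0.23). Cd47 was at 75.1 to 97.6 and 77.5 to 97.4 CPM (0.05 ± 0.14), Ptpn11 at 173 to 218 and 154 to 180.1 CPM, and Ptpn6, the phosphatase of blood cells, at 12.6, 12.2, 11.5 and 13.3 CPM versus 16.3, 13.9, 16.1 and 17.8 CPM, separate between the groups but not past the nominal threshold (0.37 ± 0.20). Of 19 tested genes of the SIRP family and related inhibitory receptors, 4 were higher past the nominal threshold and 0 lower, with a median of 0.42. Beside Clec12a these were Pirb, an inhibitory receptor for MHC class I (5.72, 5.48, 4.78 and 6.13 CPM versus 9.28, 7.53, 9.1 and 8.89 CPM), the adaptor Fyb (11.1, 10.04, 12.9 and 11 CPM versus 17.6, 20.6, 24.2 and 17.6 CPM) and Lair1, a collagen receptor. Pirb and Fyb were separate between the groups. Without the 2 libraries poor in epidermis 2 members of the list were higher past the nominal threshold.

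The cytokines and chemokines of inflamed joints were the list with the largest median among those with at least 20 tested members, at 0.71, beside 1.94 for control-antibody arthritis against the same naive mice. Of 23 tested members 5 were higher past the nominal threshold and 0 lower, beside 2.63% and 1.42% of all genes. Ccl7, a chemoattractant of monocytes, stood at 0.365, 0.492, 0.703 and 0.307 CPM in naive and 1.65, 3.8, 1.23 and 2.38 CPM in treated mice, Ccl2, the main ligand of the monocyte receptor CCR2, at 1.03, 1.4, 1.05 and 1.07 CPM versus 2.12, 3.67, 3.03 and 2.72 CPM, and Cxcl1, a neutrophil chemoattractant, at 0.122, 0.281, 0.211 and 0.46 CPM versus 0.646, 1.35, 0.578 and 2.15 CPM. In all 3 the groups were separate, at differences of 2.26, 1.33 and 2.14. Control-antibody mice 2, 3 and 4 lay higher still, and treated joints were called lower than control-antibody joints for each (edgeR adjusted p = 0.0319, 0.0489 and 0.0375). Without the 2 libraries poor in epidermis, 2 members of the list were higher past the nominal threshold.

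Il1b and Saa3 passed the nominal threshold at levels near the limit of detection. Il1b, an inflammatory interleukin, was listed at 0 in naive mice 1, 3 and 4 and in treated mouse 1, and reached 0.902 CPM in treated mouse 2, against 1.08, 9.98, 18.7 and 6.14 CPM in control-antibody arthritis. Saa3, a local acute phase protein, had 0 counts in every naive library and 0.176, 0.386, 0.217 and 1.3 CPM in treated mice, against 0.579, 15.1, 19.4 and 7.36 CPM in control-antibody arthritis. Cxcl5, a neutrophil chemoattractant of fibroblasts and epithelium, stood at 0.122, 0.211, 0.0703 and 0 CPM in naive, 0.0588, 0.58, 0.433 and 0.17 CPM in treated and 2.81, 45.1, 37.7 and 18.1 CPM in control-antibody joints. The naive and treated values of Cxcl5 overlapped, at a few counts per library. Tnfsf11, the RANKL that drives osteoclasts, was at 0.141 to 0.766, 0.386 to 1.02 and 0.827 to 17.1 CPM in the same order of groups, and the antiprotease Slpi at 0 to 0.773, 0.235 to 0.866 and 1.08 to 15.5 CPM.

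Haptoglobin (Hp), which binds free hemoglobin, stood at 5.48, 5.55, 7.03 and 5.9 CPM in naive and 12.9, 11.7, 22.5 and 15.2 CPM in treated mice, separate between the groups but with a wide SE in the fit of all 12 libraries (1.38 ± 0.86), against 8.1, 100, 381 and 83.3 CPM in control-antibody arthritis. The antiprotease Serpina3n was likewise separate, at 13.8 to 19.3 and 25.4 to 32.8 CPM (0.76 ± 0.38). In the 8 libraries alone the Hp difference was 1.38 ± 0.20 (edgeR adjusted p = 0.112). DESeq2 on these 8 called Hp and Serpina3n (adjusted p = 1.17e-05 and 0.000171). Enzymes that degrade matrix and their inhibitors had a median of -0.03, with 0 of 31 higher and 1 lower past the nominal threshold, whereas control-antibody arthritis had 12 called higher. Mmp3, stromelysin, was at 2.5, 2.04, 2.46 and 1.92 CPM in naive, 2.41, 1.93, 4.19 and 4.59 CPM in treated and 10.3, 124, 184 and 70.8 CPM in control-antibody joints. Timp1, an inhibitor of metalloproteinases, was at 4.44, 4.35, 6.4 and 3.83 CPM in naive, 6.82, 6.05, 7.07 and 6.4 CPM in treated and 14.2, 132, 183 and 64.6 CPM in control-antibody joints, and the aggrecanase Adamts4 at 0.996 to 1.34, 0.451 to 1.37 and 1.41 to 26 CPM. Naive and treated mice overlapped for all 3. The member lower past the nominal threshold was Adamts15, an aggrecanase-like protease, at 15.8, 13.5, 12.6 and 11.7 CPM in naive and 8.23, 7.86, 9.46 and 6.79 CPM in treated mice, without overlap.

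Matrix and repair genes lay near naive as well. Collagens had 0 of 24 past the nominal threshold and a median of -0.06, and matrix and repair genes 1 of 38 higher with a median of 0.02. Ccn1, a matricellular protein that is itself an early response gene, was that member, at 30.1, 24.7, 30.9 and 25.9 CPM in naive and 36.6, 57.7, 52.3 and 47.4 CPM in treated mice, without overlap (0.80 ± 0.22). Control-antibody arthritis had 48.5, 95.6, 113 and 73.9 CPM. Col1a1, the main collagen of bone, tendon and scar, ranged over 1734 to 3997 CPM in naive and 3562 to 5437 CPM in treated joints. Tnfaip6, a hyaluronan-binding protein induced by TNF, had 0.632 to 3.17 and 1.87 to 4.23 CPM, with overlap, beside 3.89 to 81.4 CPM in control-antibody arthritis.

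**Figure D3:**
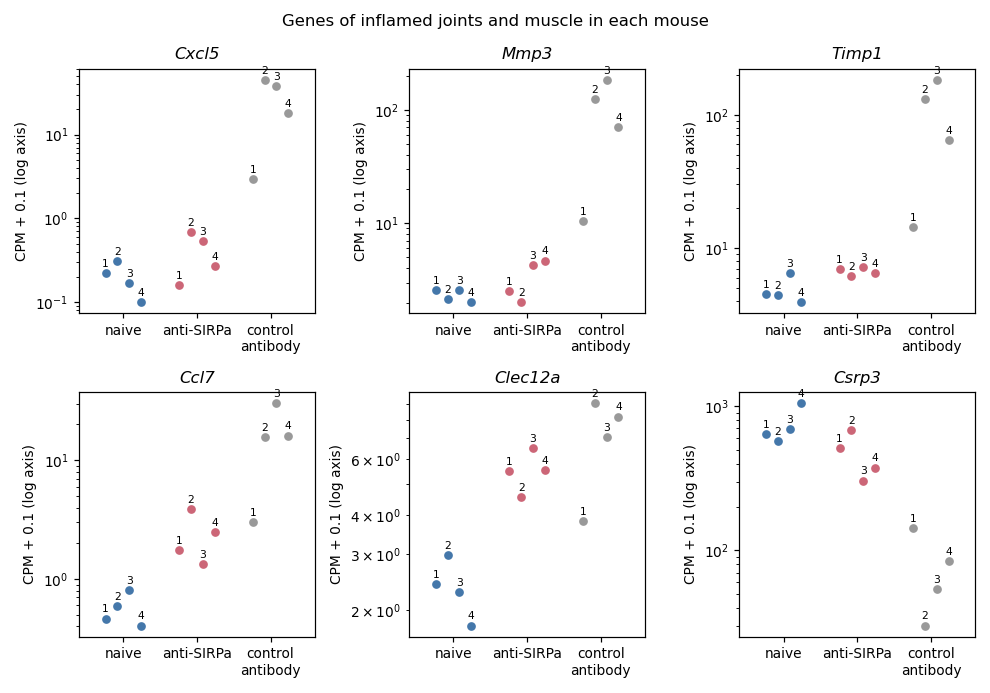
TMM-scaled CPM plus 0.1 (vertical axis, logarithmic) of 6 genes in each mouse, numbered within its group, for naive, anti-SIRPa treated and control-antibody arthritic joints. Cxcl5, Mmp3, Timp1 and Csrp3 overlap between naive and treated mice, Ccl7 and Clec12a do not, and control-antibody mice 2, 3 and 4 lie beyond the treated mice in each gene.

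Bone and cartilage differed in selected members. Of 20 tested osteoblast and osteocyte genes 3 were higher past the nominal threshold and 0 lower, with a median of 0.43. Ifitm5, a membrane protein of mineralizing osteoblasts, stood at 0.122, 0.211, 0.422 and 0.0766 CPM in naive and 1.82, 1.35, 0.794 and 0.623 CPM in treated mice, and Phex, the osteocyte peptidase of phosphate control, at 4.26, 4.85, 2.74 and 1.92 CPM versus 6.23, 5.09, 11.3 and 5.83 CPM. Both were separate between the groups. Control-antibody arthritis held 1.74 to 3.23 CPM of Phex, and treated joints were called higher than those (edgeR adjusted p = 0.0365). The 16 tested osteoclast genes had 0 past the nominal threshold in either direction and a median of -0.14, beside 0.90 for control-antibody arthritis against naive joints.

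Col11a2 and Col11a1, chains of the collagen that nucleates cartilage fibrils, were the 2 of 23 tested cartilage genes past the nominal threshold. Col11a2 stood at 42.9, 66.8, 56.2 and 40.8 CPM in naive and 93.7, 91.8, 106 and 132 CPM in treated mice (1.03 ± 0.26; edgeR adjusted p = 0.991; DESeq2 adjusted p = 0.0495), and Col11a1 at 37, 54.6, 53.1 and 24.4 CPM versus 91.8, 76.8, 67.5 and 124 CPM (1.09 ± 0.37). Both were separate between the groups. Bone-forming cells also make collagen XI. Their partner in cartilage, Col2a1, was low at 8.81 to 19.3 and 12.5 to 35.2 CPM and overlapped, and so did Acan, the main cartilage proteoglycan, at 37.7 to 51.2 and 38.3 to 60.9 CPM. The list's median was -0.02. Among 41 secreted Wnt, BMP and TGF-beta regulators, Gdf10 (0.54 ± 0.22) and Grem1 (1.58 ± 0.64) were higher past the nominal threshold and Bmp2 (-0.35 ± 0.14), its antagonist Nog (-0.46 ± 0.19) and Wnt11 (-0.59 ± 0.27) lower. Without treated mouse 3, 0 were higher, and without the 2 libraries poor in epidermis 1.

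Several fat cell genes were higher in treated joints. Of 32 tested adipocyte and lipid synthesis genes, 9 passed the nominal threshold higher and 1 lower, beside 2.63% and 1.42% of all genes. The lower one was Acaca, the first enzyme of fatty acid synthesis (-0.28 ± 0.13), and the list's median was 0.05. Adiponectin (Adipoq) stood at 15.8, 10.9, 14.8 and 11 CPM in naive and 23.1, 26.7, 30.1 and 33.9 CPM in treated mice (1.12 ± 0.32), and the droplet coat protein Plin1 at 29.5, 20.5, 20.5 and 17.1 CPM versus 35.4, 42.9, 54.5 and 46.5 CPM (1.03 ± 0.30). Leptin (Lep) stood at 2.98, 1.76, 2.32 and 2.61 CPM versus 3.94, 9.6, 4.55 and 6.11 CPM. All 3 were separate between the groups, and here treated mouse 1 was the lowest of its group. Control-antibody joints held 8.68, 3.94, 17.4 and 10.8 CPM of Adipoq and 15, 9.59, 29.6 and 12.2 CPM of Plin1, called lower than treated joints (edgeR adjusted p = 0.0375 and 0.0344).

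Pparg, the master regulator of fat cells, was at 6.27, 5.41, 4.22 and 3.91 CPM in naive and 6.05, 7.99, 10.5 and 9.0 CPM in treated mice, with treated mouse 1 within the naive range, and Fabp4, the fatty acid carrier of fat cells, macrophages and vessels, at 54.1, 52, 40.5 and 41.6 CPM versus 61.5, 74.1, 114 and 76 CPM. Adipocytes lie both under the skin and in marrow, and the data do not separate these sources. Without the 2 libraries poor in epidermis 4 members passed the nominal threshold, and without treated mouse 3 6.

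Muscle genes leaned the other way. Of 39 tested sarcomere genes 0 were higher and 4 lower past the nominal threshold, with a median of -0.20, beside -0.70 and 14 called lower in control-antibody arthritis. Without the 2 libraries poor in epidermis the median was -0.115. Sarcomere genes took 24.1% to 33.4% of counts in naive mice and 28.8%, 29.1%, 26.8% and 18.4% in treated mice 1 to 4. Only treated mouse 4 thus lay below the naive range of this share. Xirp1, an actin-binding protein of the muscle membrane that responds to load and injury, stood at 528, 368, 457 and 854 CPM in naive and 342, 398, 203 and 215 CPM in treated mice, where the ranges overlapped (-0.93 ± 0.27). Tnni1, the troponin I of slow fibers, stood at 389, 353, 453 and 503 CPM in naive and 309, 302, 259 and 250.02 CPM in treated mice. Myl2, a slow myosin light chain, was at 454, 445, 358 and 616 CPM versus 357, 317, 247 and 275 CPM. Both were separate between the groups by narrow gaps (-0.60 ± 0.22 and -0.65 ± 0.25). Myl3, another slow light chain, was also separate (-0.50 ± 0.21). Control-antibody arthritis lay lower still, at 243, 127, 115 and 121 CPM for Tnni1 and 138, 72.8, 59.2 and 64.5 CPM for Myl2, and was called lower than treated joints in both (edgeR adjusted p = 0.0468 and 0.0158).

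Csrp3, a stretch sensor of the Z-disc, stood at 639, 575, 696 and 1050.0 CPM in naive, 514, 685, 305 and 375 CPM in treated and 142, 29.9, 53.9 and 84.3 CPM in control-antibody joints. Treated mice 1, 3 and 4 lay below the naive mice and treated mouse 2 within them. The fast fiber creatine kinase Ckm had 2750.5 to 3929.5 CPM in naive and 2465 to 3834 CPM in treated joints (-0.01 ± 0.26). Further genes that were low in control-antibody arthritis overlapped between naive and treated mice: the muscle deaminase Apobec2 (214 to 310.4 and 138 to 272 CPM), the growth factor Fgf6 of muscle (13.8 to 23.1 and 10.4 to 14.7 CPM) and the cartilage lectin Clec3a (5.83 to 13 and 4.33 to 13.1 CPM). Sln, sarcolipin, an inhibitor of the calcium pump, was the muscle gene higher past the nominal threshold, at 4.75, 2.88, 3.37 and 5.67 CPM in naive and 6.17, 9.4, 12.4 and 4.25 CPM in treated mice, with overlap. Ppargc1a, the coactivator of mitochondrial genes, was lower (-0.63 ± 0.28). Of 75 nuclear genes of the respiratory chain, 0 were higher and 1 lower past the nominal threshold (Atp5d, a subunit of ATP synthase, -0.29 ± 0.12), with a median of -0.07.

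**Figure D4:**
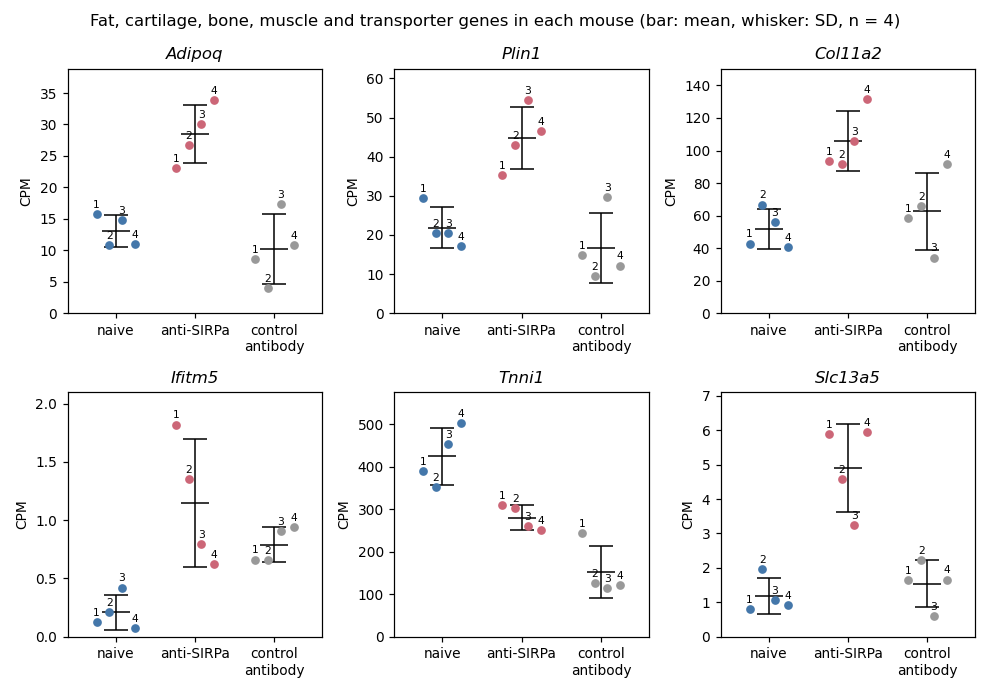
TMM-scaled CPM (vertical axis, linear from 0) of 6 genes of fat, cartilage, bone, muscle and citrate transport in each mouse, numbered within its group, for naive, anti-SIRPa treated and control-antibody arthritic joints; bars are means and whiskers SD of 4 mice. In each gene the 4 treated mice are separate from the 4 naive mice, below them for Tnni1 and above them for the other 5. The 6 genes were picked among small p-values, so their separation follows in part from the choice. Other genes of these tissues overlapped, among them Pparg, Col2a1 and Csrp3.

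Outside the lists, the naming rule added genes by their small p alone. Slc13a5, a citrate transporter of liver and of bone-forming cells, stood at 0.791, 1.97, 1.05 and 0.92 CPM in naive and 5.88, 4.57, 3.25 and 5.94 CPM in treated mice, a 4.15-fold ratio of the means (2.05 ± 0.40; edgeR adjusted p = 0.526). The groups were separate. Control-antibody joints were near naive at 1.65, 2.23, 0.604 and 1.66 CPM, and treated joints were called higher than those by 1.69 (edgeR adjusted p = 0.0409). Adcyap1r1, the receptor of the neuropeptide PACAP, named here after its values were seen, was at 2.68, 3.86, 6.47 and 3.68 CPM in naive, 8.23, 9.6, 11 and 10.4 CPM in treated and 3.47, 2.23, 2.87 and 3.03 CPM in control-antibody joints, and the treated mice were separate from both other groups. It was called against control-antibody arthritis (1.74; edgeR adjusted p = 0.0158) and not against naive joints (1.23 ± 0.25; edgeR adjusted p = 0.526).

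Among genes lower in treated joints, Itgb8, the integrin subunit that activates latent TGF-beta, had the smallest p. It stood at 30.6, 35.4, 36.3 and 31 CPM in naive and 21.4, 24.1, 21.4 and 22.3 CPM in treated mice, separate between the groups (-0.58 ± 0.12; edgeR adjusted p = 0.526; DESeq2 adjusted p = 0.00749). Control-antibody mice lay at 27.9, 29.3, 23.9 and 21.7 CPM, overlapping the treated mice. The kinase Mast4 was at 116, 88.7, 113 and 107 CPM versus 79.3, 78.4, 68.5 and 82.3 CPM (-0.46 ± 0.10), and the ephrin ligand Efna1 at 18.9, 13.3, 13.4 and 13.4 CPM versus 9.52, 8.44, 8.01 and 10.1 CPM (-0.71 ± 0.18). Tmem44, a membrane protein, was at 3.04, 2.95, 4.43 and 4.29 CPM versus 1.59, 1.61, 2.09 and 1.7 CPM, and Tnfrsf12a, the receptor of the cytokine TWEAK, at 20.3, 13, 20.9 and 31.7 CPM versus 8.76, 12.1, 6.5 and 8.95 CPM. All were separate between naive and treated mice.

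The remaining lists held few members past the nominal threshold. Among 25 heat shock and unfolded protein genes there were 0 in either direction, with a median of 0.05. The chaperone Hspa8 was lower in every treated mouse (103, 101, 107 and 116 CPM versus 96.1, 84.7, 96.2 and 89.6 CPM) and the lectin chaperone Calr higher in every treated mouse (306, 280.0, 259.7 and 236 CPM versus 346, 344, 311 and 388 CPM), both without passing the nominal threshold. Hypoxia and glycolysis genes had 0 of 27 and a median of -0.12, megakaryocyte and platelet genes 0 of 12 and -0.07, mitochondrially encoded genes 0 of 13 and -0.13, and epidermal keratin genes 0 of 31 and -0.43. The epidermal median was 0.31 without naive mouse 1 and 0.19 with the epidermal list as a covariate. Synovial fibroblast markers had 3 of 24 higher (Cxcl12, C3 and Vcam1, given above), 1 without treated mouse 3 and 1 without the 2 libraries poor in epidermis. Tendon genes had 2 of 19 higher (Egr1 and Col11a1). Among 29 endothelial genes Vcam1 and Esm1 were higher and Sox17, a factor of arterial endothelium, lower (5.24, 5.34, 5.41 and 5.14 CPM versus 4.52, 3.8, 3.54 and 3.0 CPM, without overlap). The 20 Schwann cell and nerve genes had 1 higher, the sodium channel Scn7a of glia and sensory neurons, at 18.6, 19.2, 20.6 and 17.7 CPM versus 22.3, 27.4, 24.1 and 22.3 CPM, also without overlap. Without treated mouse 3, or without the 2 libraries poor in epidermis, 1 endothelial gene and 0 Schwann cell and nerve genes were higher.

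Some further genes that differed most between control-antibody arthritis and naive joints in earlier results of these data also overlapped between naive and treated mice. Nmrk2, which makes NAD in muscle, ranged over 3.65 to 11.7 CPM in naive, 2.6 to 6.52 CPM in treated and 1.44 to 1.82 CPM in control-antibody joints. Igsf1, an immunoglobulin superfamily protein, ranged over 5.17 to 11, 4.55 to 6.31 and 0.529 to 2.98 CPM in the same order. The non-coding RNA Hottip lay at 2.86 to 5.06, 1.42 to 3.61 and 0.151 to 1.32 CPM. The antisense transcript Hectd2os ranged over 3.02 to 4.32, 2.24 to 4.44 and 0 to 0.939 CPM, and Gbp10, a guanylate-binding protein, over 4.85 to 9.04, 3.25 to 7.17 and 0.151 to 2.65 CPM. Naive and treated mice overlapped for all 5, and in each the lowest treated mouse lay below the lowest naive mouse.

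The medians of the gene lists are set side by side for treated and for control-antibody joints, each against the naive mice. The cytokine and chemokine list had 0.71 in treated and 1.94 in control-antibody joints, the acute phase list 0.46 and 2.19, and the recruited monocyte and macrophage list 0.45 and 1.11. The sarcomere list had -0.20 and -0.70, and the muscle atrophy and regeneration list -0.04 and 0.23. Lists with a higher median against naive in treated joints included the secondary granule (1.22 and 0.33), plasma cell (0.70 and 0.21), marrow stroma (0.44 and 0.17) and mast cell lists (0.53 and -0.44). The erythroid list (0.37 and -0.26), the resident macrophage list (0.21 and 0.004), the fat cell list (0.05 and -0.27) and the osteoblast list (0.43 and 0.37) did so too. The primary granule list had 1.38 and 0.59 with 3 tested members, the first value being that of Hp and the second that of Mpo. Hp itself differed by 4.58 in control-antibody joints. For treated minus control-antibody joints, the median was -0.32 for secondary granule, -0.007 for primary granule and -0.002 for osteoblast genes. It was 0.44 for plasma cell, 0.32 for marrow stroma, 0.97 for mast cell, 0.835 for erythroid, 0.21 for resident macrophage and 0.35 for fat cell genes. Both comparisons share the naive mice, so that the medians of a list are not independent. Lists of proliferating cells lay near 0 in treated joints: of 37 tested cell cycle and replication genes 0 passed the nominal threshold, with a median of 0.04, beside 1.36 in control-antibody arthritis. Mki67, which marks dividing cells, spread from 7.13 to 132 CPM in naive and from 19 to 180.0 CPM in treated mice, lowest in the 2 libraries poor in epidermis. T and NK cell genes had 0 of 8 tested members past the nominal threshold.

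**Figure D5:**
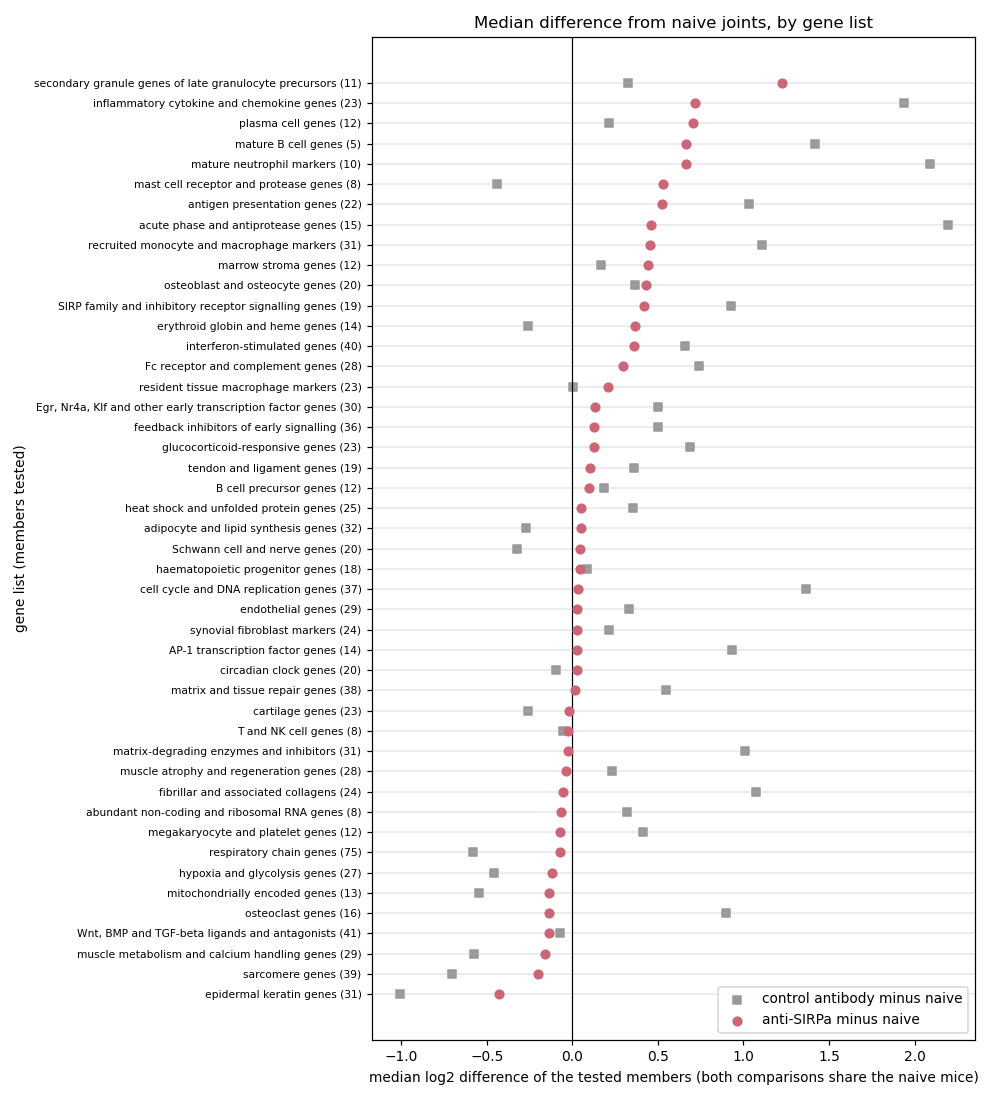
Median log2 difference (horizontal axis) of the tested members of each gene list with at least 5 of them (vertical axis, number in parentheses), for anti-SIRPa treated against naive joints (circles) and for control-antibody arthritis against the same naive joints (squares). Secondary granule genes have the largest median for treated joints, at 1.22, but 0.74 without treated mouse 3, below the cytokine list at 0.85, and acute phase genes the largest for control-antibody joints, at 2.19.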

How the data were processed

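Total RNA of the paw tissue of 12 mice, 4 per group, was sequenced after stranded total RNA library preparation, per the labels' protocols. The authors deposited raw counts per gene, on GRCm38 per the submitters' processing notes. How reads were aligned, counted, assigned to strands and shared between copies was not given in the sources used here, so antisense and near-identical genes may share reads. The 12 single tables were identical to the joint table, and of 52636 identifiers 52403 were named from GENCODE M21. Replicates of a group differed by far more than sampling noise (smallest chi-square per gene 8.78), so each counted as 1 sample. The labels name the replicates as separate animals.

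The 12 libraries were fitted together in edgeR 4.0.16 (R 4.3.3) after its filter on low counts, with TMM factors, a robust quasi-likelihood fit and 1 mean per group, and p-values were adjusted over all 16674 tested genes by the Benjamini-Hochberg method. The biological coefficient of variation was 0.334. Alternatives were DESeq2 1.42.0, limma 3.58.1 with voom, other size factors and filters, tissue covariates, the 8 libraries alone and leaving out single libraries. Share tests were exact permutation tests. The comparison and gene lists were chosen with earlier results of these data known. Genes were named by a rule: without calls, the 5 smallest p-values in each direction, up to 3 members of each list, 4 SIRPa pathway genes and the genes that changed most in control-antibody arthritis. Further genes of the lists, DESeq2 calls and tissue markers were named after their values were seen. The scripts' tests were checked on simulated data. A few genes counted in the lists are not reported here by name.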

Additional observations from a re-analysis of the deposited data

Results flagged for a closer look

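In groups of 4 mice, 1 mouse lay apart from the other 3 by a share of the group's whole range above Dixon's 95% critical value in 19 of 294 cases (each described gene in each of the 2 groups), where chance flags about 1 in 20. Naive mouse 1 stood above its group in Efna1 (18.9 CPM). Naive mouse 2 stood above its group in Pax5 (0.773 CPM), Rag1 (0.421 CPM), Ccl2 (1.4 CPM), Il1b (0.0702 CPM) and Snord33 (14 CPM). Naive mouse 2 stood below its group in Lyve1 (80.3 CPM). Naive mouse 3 stood above its group in H2-Aa (22.6 CPM). Naive mouse 4 stood above its group in Tsc22d3 (125 CPM) and Atp5d (191 CPM). Naive mouse 4 stood below its group in Zfp36l1 (36.4 CPM) and Col2a1 (8.81 CPM). Treated mouse 2 stood above its group in Rhob (83 CPM). Treated mouse 3 stood above its group in Camp (4.98 CPM) and Acan (60.9 CPM). Treated mouse 4 stood above its group in Fosl2 (95.9 CPM), Krt5 (738 CPM), Gm26917 (22139 CPM) and Mki67 (180.0 CPM).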

How the results depend on the processing

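No gene was called in the edgeR fits with other size factors (RLE, upper quartile, library size alone, TMM without abundant lists), with a stricter filter, without robust dispersion, with a tissue covariate, or in limma-voom. The count of called genes was 4 without a filter on low counts, 20 with DESeq2, 112 with DESeq2 on the 8 libraries alone, and 4 with edgeR on those without the 2 libraries poor in epidermis (all lower, hair keratin-associated genes). Leaving out 1 replicate gave 0 called genes with all groups, and 0 to 2 with the 8 libraries alone, the 2 being Igkc and Lcn2 without treated mouse 4. The count past the nominal threshold, 675 in the main analysis, was 1220 in the 8 libraries alone, 1229 with DESeq2 and 1245 with limma-voom on them, and 1231 with a sarcomere covariate. Leaving out 1 replicate gave 518 to 1324 such genes with all groups (1077 without control-antibody mouse 1 and 1324 without treated mouse 4) and 994 to 1760 with the 8 libraries alone (1078, 1144, 1156 and 1133 without naive mice 1 to 4, and 994, 1089, 1046 and 1760 without treated mice 1 to 4). Of 104 described genes with a difference of at least 0.5 in size, 4 changed sign under any of 39 settings: Krt5 with an epidermal covariate (0.15), Mmp3 with a sarcomere covariate (-0.20), and Hbb-bs (-0.04) and Cpa3 (-0.19) with an erythroid covariate. The median of the erythroid list, 0.37, was also -0.04 with that covariate. Deviations of same-numbered naive and treated mice correlated at -0.339, -0.546, -0.075 and -0.8. Naive mouse 4 and treated mouse 2, the 2 libraries poor in epidermis, correlated at 0.766. The correlations follow tissue content in part, so they cannot decide whether the numbers pair the samples. With a replicate block, 0 genes were called and 503 passed the nominal threshold (0 and 728 in the 8 libraries alone). Genes with a few counts per library, among them most primary granule, T cell and eosinophil genes, were below the depth needed for a test.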

Other observations

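Small nucleolar RNAs, which guide chemical modification of ribosomal and spliceosomal RNA and mostly lie in introns of other genes, were a further group with many members higher in treated joints; the group was chosen after its values were seen. Of 147 tested, 17 (11.6%) lay higher in every treated than in every naive mouse and 0 (0.0%) lower. Over all tested genes these shares were 3.04% and 1.85%. Past the nominal threshold 46 of the 147 were higher, against 2.63% of all tested genes. The median difference of the 147 was 0.69, beside 0.52 for control-antibody arthritis against the same naive mice. Snord33 stood at 8.7, 14, 8.58 and 9.12 CPM in naive, 23.9, 14.1, 20.4 and 20.4 CPM in treated and 12.7, 11.3, 11.5 and 19.5 CPM in control-antibody joints. Treated mouse 2 was just above the highest naive mouse, and treated mouse 1 was the highest. Snord15b stood at 262, 419, 351 and 348 CPM in naive and 644, 462, 599 and 469 CPM in treated mice, again with mouse 1 highest and naive mouse 2 the highest of its group.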
